A study of Mus musculus with 13 samples.

Results

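Oral and pancreatic Sox2 KO tumors of a mouse model of NUT carcinoma (NC) were compared with each other. The 5 tumors without Sox2, 2 oral and 3 pancreatic, were taken by their labels from the 13 tumors of the series, and 16886 of the 21897 protein-coding genes with values passed the count filter and were tested. The remaining 8 tumors (WT), 4 per site, carry the fusion allele without a floxed Sox2 gene, as KRT14-Cre; NCT+/- in the mouth and Pdx1-Cre; NCT+/- in the pancreas, and do not enter the comparison between the sites. They are used only where the site difference of KO tumors is set against that of WT tumors.

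The oral KO tumors are labelled KRT4Cre; NCT+/-; Sox2fl/fl, although the oral WT tumors and the study's methods name KRT14-Cre as the oral driver. The pancreatic KO tumors are labelled Pdx1-Cre; NCT+/-; Sox2fl; fl. All 5 tumors therefore share the NCT allele, in which Cre makes the NUT fusion gene by a chromosome translocation, and the floxed Sox2 gene that the same recombinase deletes. KRT14-Cre is active in basal cells of oral mucosa, skin and salivary gland, and Pdx1-Cre in progenitors of the pancreas and the neighbouring foregut. Site, Cre driver and the normal tissue around the tumor change together in this design and cannot be told apart. The labels give neither age nor the mouse of each tumor, so that the p-values measure the spread between these samples only.

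NUT carcinoma is a poorly differentiated squamous cancer in which a fusion protein of NUTM1 spreads acetylated chromatin and holds genes of basal progenitor cells active. It can arise in the head, the chest and other organs along the midline. Cells of these regions keep a record of their position in their transcription factors: Dlx, Alx and Msx factors pattern the jaw and mouth, Pdx1, Onecut and Foxa factors the posterior foregut and pancreas, and Hox factors the axis from hindbrain to tail. Stratified epithelium of the mouth is built from basal cells with keratins 5 and 14 and mature layers with keratins 4 and 13, whereas ducts and glands carry the simple keratins 8, 18 and 19.

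Each tumor was sequenced as 1 library of rRNA-depleted total RNA. The oral KO libraries held 11735315 and 20432164 estimated counts, and the pancreatic ones 89562790 to 120482829. Depth thus parted the sites, and the smallest library limits what can be seen at low levels. The WT libraries held 29394258 to 40420228 counts in oral and 40964533 to 46134830 in pancreatic tumors. The sites thus differed more in depth among KO than among WT tumors. In the comparisons of KO with WT tumors below, depth and genotype cannot be told apart. Oral KO tumor 1 stood apart, with 59.5% of its counts in protein-coding genes, against 84.5% in oral KO tumor 2 and 86.9 to 91.7% in the pancreatic tumors. Its share of the 7SL and 7SK RNAs was 18.1%, against 2.71 to 5.56% in the others. Between tumors, Pearson's r of log2 values across 24787 genes, which are not independent replicates, was 0.916 for the oral pair, 0.966 to 0.974 within the pancreas and 0.847 to 0.862 between the sites. The labels were checked first on the targeted gene. Sox2 had 0 and 1 counts in the oral and 0, 1 and 2 counts in the pancreatic KO tumors, and 410 to 1487 in the WT tumors, and it was too low in the KO tumors to be tested.

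The question of the comparison is which genes tell the sites apart once Sox2 is gone. Levels are given as CPM, the estimated counts per 1000000 counts of a tumor, scaled between tumors by the TMM method, in the order of the labels' tumor numbers. Log2 fold changes are oral minus pancreatic, so that a positive value means a higher level in oral tumors. A gene was called differentially expressed (DEG) at an adjusted p under 0.05 in edgeR's quasi-likelihood test with an absolute log2 fold change above 1. Of the 16886 protein-coding genes, 1582 DEGs (9.37%) were higher in oral tumors and 2249 DEGs (13.3%) were higher in pancreatic tumors. With protein-coding genes scaled alone, 1776 were higher in oral and 1093 in pancreatic tumors. The split thus moved with the scaling, as did the median log2 fold change of the coding genes, which was -0.28 with all genes and -0.01 with coding genes alone. The medians of gene lists below are therefore given next to their distance from -0.28. Levels of the 2 sites did not overlap for 61.4% of the coding genes. In bulk tumors, fewer cells of a type and less RNA per cell cannot be told apart.

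Nutm1 and Trp63 did not pass the test between the sites, and Myc did. Nutm1, the fusion partner that is otherwise restricted to the testis, was at 41.0 and 63.3 CPM in the oral tumors and 55.2, 51.3 and 63.7 CPM in the pancreatic tumors. The groups overlapped, and the log2 fold change was -0.12 (SE 0.23, adjusted p = 0.71). Reads of the fusion and of the unbroken allele are counted together for this gene. Trp63, the master regulator of stratified epithelium, was at 440.4 and 826 CPM in the oral tumors and 855, 570.3 and 577 CPM in the pancreatic tumors, and the groups overlapped. Its adjusted p was 0.87. Myc, a growth regulator that the fusion protein keeps active, was at 94.6 and 119.6 CPM in the oral tumors and 339.9, 348 and 298 CPM in the pancreatic tumors. All 3 pancreatic tumors lay above both oral tumors, and Myc was 3.07-fold higher in the pancreas (log2 fold change -1.62 (SE 0.19), adjusted p = 0.0068).

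Transcription factors of the developing face were higher in oral tumors. Of 33 tested members of a list of craniofacial factors, 19 were higher in oral and 2 in pancreatic tumors, and the median log2 fold change was 3.36, 3.64 above that of all coding genes. The background of genes higher in oral tumors was 9.37%. Of the 19, 12 were DEGs in each of the 5 fits that left out 1 tumor. Where an oral tumor was left out, these fits kept the genes that had passed the count filter with all 5 tumors, a choice made after seeing the data, since the filter redone on 4 tumors does not test a gene counted in the remaining oral tumor alone. With the filter redone, 9 of the 19 held and 3, among them Lhx8 and Msx2, were not tested without either oral tumor. Without oral KO tumor 1 the count fell from 19 to 12 with the genes kept and to 9 with the filter redone, and without oral KO tumor 2 to 15 and 12. Alx1, a factor of the facial mesenchyme, was at 15.1 and 223 CPM in the oral tumors and 0.0535, 0.0922 and 0.0995 CPM in the pancreatic tumors, and the oral tumors differed widely from each other.

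The Dlx family, which sets the pattern along the jaw, was split. Dlx3 was at 27.9 and 77.8 CPM in the oral tumors and 1.285, 0.680 and 0.696 CPM in the pancreatic tumors, Dlx4 at 3.58 and 14.1 CPM in the oral tumors and 0.0624, 0.104 and 0.154 CPM in the pancreatic tumors and Dlx5 at 64.5 and 30.9 CPM in the oral tumors and 0.223, 0.980 and 0.280 CPM in the pancreatic tumors. These 3 genes and Dlx6 were 13.5- to 96.5-fold higher in oral tumors, with adjusted p from 0.0054 to 0.0073. Dlx2 went the other way, at 4.17 and 0.920 CPM in the oral tumors and 24.1, 14.3 and 30.7 CPM in the pancreatic tumors (log2 fold change -3.25 (SE 0.73), adjusted p = 0.023). Dlx1 did not pass the test (adjusted p = 0.18). The Dlx2 call was lost without pancreatic KO tumor 1 or 3.

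Further factors of the mouth and pharynx were called as well. Tbx1, the pharyngeal arch factor, was at 22.7 and 10.1 CPM in the oral tumors and 0.535, 0.450 and 0.226 CPM in the pancreatic tumors, and Eya1, a phosphatase and transcriptional cofactor, at 6.96 and 4.22 CPM in the oral tumors and 0.366, 0.208 and 0.280 CPM in the pancreatic tumors. Their log2 fold changes were 5.33 (SE 0.56, adjusted p = 0.0059) and 4.27 (SE 0.45, adjusted p = 0.0059), and both oral tumors lay above the 3 pancreatic tumors. Lhx8, Msx2, Six2, Alx4, Sim2, Pax3 and Pax9 were likewise higher in oral tumors, by 10.8- to 66.4-fold. Lhx8 and Msx2 passed the count filter through the oral tumors alone, which fixed their direction. Pax3 and Pax9 did not keep the call without oral KO tumor 1, nor did Alx4 and Sim2. Pax9 and Sim2 also lost it without oral KO tumor 2. Pax3 lost it when any pancreatic tumor was left out, and Pax9 without pancreatic KO tumor 3. Alx4 lost it without pancreatic KO tumor 2, and Sim2 without pancreatic KO tumor 1. Prrx1 and Msx1, which mesenchymal cells of the face also express, were 2.80- to 3.51-fold higher and were lost with oral KO tumor 1 left out as well. Both calls were also lost without oral KO tumor 2 or pancreatic KO tumor 1, and that of Msx1 without pancreatic KO tumor 3. Shox2, a limb and palate factor, was higher in the pancreas, at 3.38 and 6.71 CPM in the oral tumors and 18.5, 61.5 and 40.6 CPM in the pancreatic tumors (log2 fold change -2.97), and lost the call without either oral tumor. Pitx1, Osr2, Otx1, Lhx6, Barx1, Barx2, Twist1, Hand2, Prrx2, Dlx1, Nkx2-3 and Foxc2 were not called, with adjusted p from 0.053 to 0.82.

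**Figure D1:**
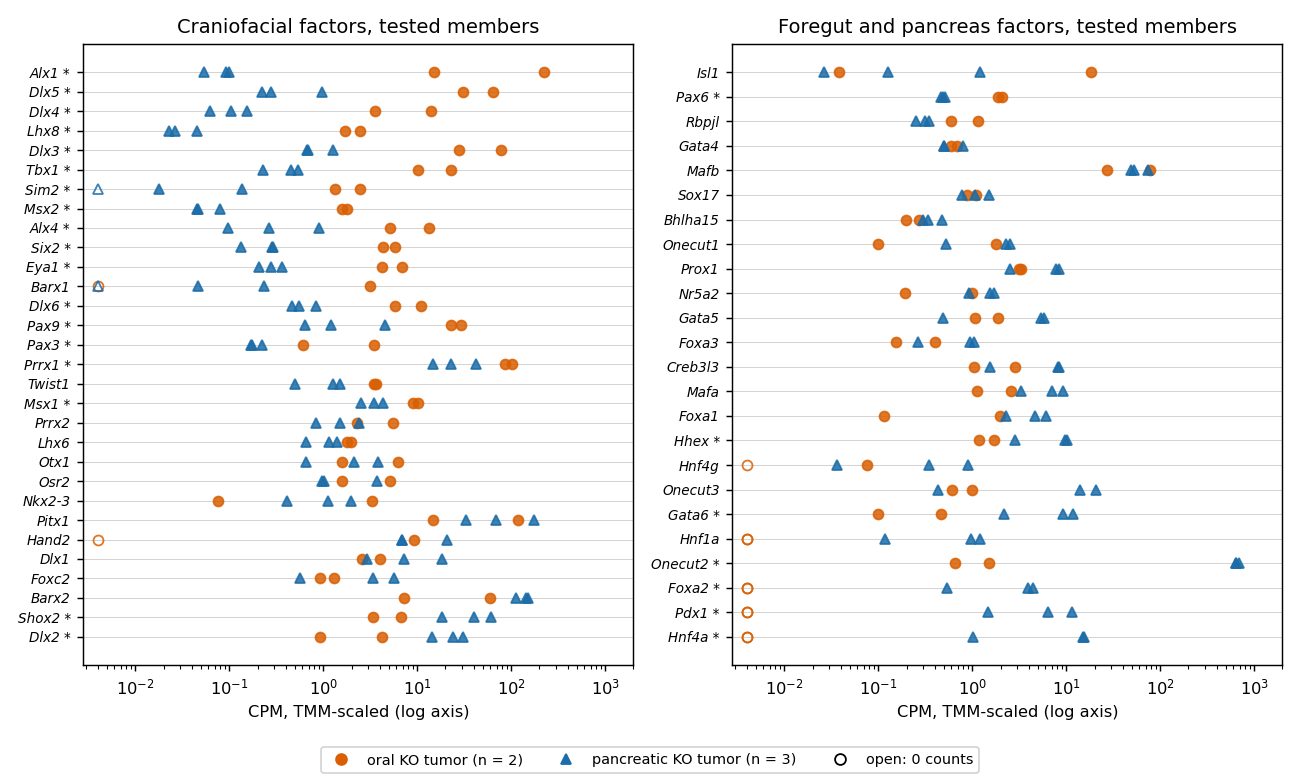
Levels of tested craniofacial (left) and foregut and pancreas factors (right) in each Sox2 KO tumor, as TMM-scaled CPM on a log axis, ordered by fitted log2 fold change. An asterisk marks a DEG, and open symbols at the left edge mark tumors with 0 counts. In the left panel the 2 oral tumors lie to the right of the 3 pancreatic tumors for Tbx1, Dlx3 and Dlx5, and in the right panel the order is turned for Onecut2.

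Foregut and pancreas factors had the opposite tendency with fewer calls. Of 25 tested members, 7 were higher in pancreatic and 1 in oral tumors (median log2 fold change -1.67, -1.39 from all coding genes), beside the background of 13.3%. Onecut2, a cut-homeodomain factor of liver and pancreas progenitors, was at 1.49 and 0.652 CPM in the oral tumors and 647, 644 and 696 CPM in the pancreatic tumors. It was 618-fold higher in the pancreas (log2 fold change -9.40 (SE 0.45), adjusted p = 0.0014). It kept the call in each fit that left out 1 tumor, as 2 of the 7 genes did. The count of 7 was 4 without oral KO tumor 1, 2 without oral KO tumor 2, 3 and 2 without pancreatic KO tumors 1 and 2, and 10 without pancreatic KO tumor 3.

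Hnf4a, Pdx1 and Foxa2 had 0 counts in both oral tumors. They passed the count filter through the pancreatic tumors alone, which fixed their direction. Hnf4a, a nuclear receptor of gut and liver, was at 15.1, 15.5 and 1.03 CPM in the pancreatic tumors, Pdx1, the master gene of the pancreas, at 11.6, 6.34 and 1.47 CPM, and Foxa2, a pioneer factor of endoderm, at 4.45, 3.92 and 0.543 CPM. Against a floor of 3 counts per library they were at least 51.0-, 31.3- and 14.4-fold higher in the pancreas, with adjusted p of 0.031, 0.02 and 0.03. Pancreatic KO tumor 3 was the lowest of its group for all 3 genes. The calls of Hnf4a and Foxa2 were lost without either oral tumor or without pancreatic KO tumor 1 or 2, and that of Pdx1 without either oral tumor or pancreatic KO tumor 2. Gata6 and Hhex were further DEGs of this direction, at 27.7- and 5.27-fold, and they too were lost in 4 of the 5 fits. The endocrine and eye factor Pax6 was higher in oral tumors, at 2.09 and 1.88 CPM in the oral tumors and 0.491, 0.519 and 0.470 CPM in the pancreatic tumors, and lost the call without pancreatic KO tumor 2.

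Promoters of 4 genes called between the sites in KO tumors are shown so that the loci behind these values can be seen. RefSeq gives them on GRCm38.p6 as 250 bases before to 50 bases after a transcript start. They are printed 5′ to 3′ on the strand of the gene. Capitals mark 5 short motifs searched on both strands, the half-site GTTAAT, the homeodomain core TAATTA, the bicoid core TAATCC, the E-box CACGTG and the TATA box TATAAA. Matches of the first pair can overlap. The downstream start of Hnf4a lies at chr2:163546905-163547204 (plus strand), Pdx1 at chr5:147269847-147270146 (plus strand), Hoxd13 at chr2:74667975-74668274 (plus strand) and the upstream start of Krt13 at chr11:100121517-100121816 (minus strand).
Hnf4a: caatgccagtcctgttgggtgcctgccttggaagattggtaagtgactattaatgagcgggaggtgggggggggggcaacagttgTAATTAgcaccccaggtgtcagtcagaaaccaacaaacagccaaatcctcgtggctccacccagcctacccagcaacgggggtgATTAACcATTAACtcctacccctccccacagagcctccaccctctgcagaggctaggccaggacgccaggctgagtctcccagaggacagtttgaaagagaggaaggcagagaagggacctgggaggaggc
Pdx1: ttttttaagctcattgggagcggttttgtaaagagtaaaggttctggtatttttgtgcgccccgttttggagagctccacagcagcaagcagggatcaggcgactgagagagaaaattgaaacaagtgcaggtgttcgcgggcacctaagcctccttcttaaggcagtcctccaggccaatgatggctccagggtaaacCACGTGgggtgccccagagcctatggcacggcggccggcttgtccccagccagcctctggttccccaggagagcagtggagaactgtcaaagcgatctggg
Hoxd13: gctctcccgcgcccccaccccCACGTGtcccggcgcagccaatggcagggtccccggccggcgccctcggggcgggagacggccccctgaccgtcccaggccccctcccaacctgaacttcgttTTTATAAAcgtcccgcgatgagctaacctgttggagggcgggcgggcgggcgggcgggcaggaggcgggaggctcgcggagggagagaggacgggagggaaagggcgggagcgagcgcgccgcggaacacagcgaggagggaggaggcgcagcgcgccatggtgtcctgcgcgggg
Krt13: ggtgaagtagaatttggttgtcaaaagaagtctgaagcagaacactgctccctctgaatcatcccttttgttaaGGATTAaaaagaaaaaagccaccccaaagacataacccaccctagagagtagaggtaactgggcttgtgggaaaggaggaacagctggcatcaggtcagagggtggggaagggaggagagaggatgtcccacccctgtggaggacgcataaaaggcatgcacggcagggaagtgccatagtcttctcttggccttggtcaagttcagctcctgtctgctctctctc
The Hnf4a promoter holds 2 half-sites GTTAAT in reverse, starting 81 and 74 bases before the transcript start and parted by 1 base, and a homeodomain core. The upstream Hnf4a start held none of the 5 motifs. The table had promoters for 4 of the 7 foregut factors higher in the pancreas, and 2 of their 7 promoters held GTTAAT, against 7.1% of 32851 promoters. For the craniofacial factors higher in oral tumors it had 7 of 19 genes, and 2 of their 8 promoters held GTTAAT as well, while 0 of the 8 and 0 of the 7 held TAATCC, against 7.06% of all. Of 7 promoters of Hox genes higher in oral tumors 4 held CACGTG, against 7.15% of all. A match of this length is a description of the sequence and not a bound site.

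The called Hox genes were divided between the sites by cluster. Of 27 tested Hox genes, 11 were higher in oral tumors and 6 in pancreatic tumors, beside backgrounds of 9.37% and 13.3%. All 11 lie in the Hoxc and Hoxd clusters, with 6 of 7 tested Hoxc and 5 of 5 tested Hoxd genes, and all 6 lie in the Hoxa and Hoxb clusters, with 2 of 6 and 4 of 9. The reading by cluster was chosen after the values were seen. Of the 11 oral genes 7 passed the count filter through the oral tumors alone. The 6 pancreatic genes had at most 4 counts in an oral tumor and passed through the pancreatic tumors alone. The filter thus fixed the direction of these genes, so that the counts per cluster cannot decide whether the clusters differ. Hoxd11, which marks the posterior trunk and limb, was at 26.1 and 2.57 CPM in the oral tumors and 0.0178, 0.0346 and 0.0452 CPM in the pancreatic tumors. It was 441-fold higher in oral tumors (log2 fold change 8.70 (SE 1.16), adjusted p = 0.0084), and oral KO tumor 1 was the higher of the pair. Hoxd13, the most posterior gene of its cluster, was at 1.69 and 7.17 CPM in the oral tumors and had 0 counts in the 3 pancreatic tumors, a difference of at least 150.2-fold (adjusted p = 0.011). Here oral KO tumor 2 was the higher one. Hoxc8 was at 3.48 and 1.27 CPM in the oral tumors and 0.00892, 0.0115 and 0.00904 CPM in the pancreatic tumors, a ratio of 194-fold (95% counting interval 63.6 to 964). Intervals of this kind cover counting error only.

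Hoxb9 was at 0.298 and 0 CPM in the oral tumors and 4.01, 4.58 and 4.68 CPM in the pancreatic tumors, a ratio of 53.2-fold (95% counting interval 18.1 to 258) with adjusted p = 0.016. Hoxb3 was at 0.199 and 0.153 CPM in the oral tumors and 2.08, 3.08 and 1.45 CPM in the pancreatic tumors (log2 fold change -3.68 (SE 0.61), adjusted p = 0.011) and Hoxb2 at 0 and 0.0767 CPM in the oral tumors and 1.58, 1.98 and 1.13 CPM in the pancreatic tumors (adjusted p = 0.011). The pancreatic tumors lay above the oral tumors for each of these genes. Hoxa2, Hoxa4 and Hoxb5 were the remaining DEGs of this direction. Of the 11 oral calls 7 held in each fit that left out 1 tumor with the genes kept, and of the 6 pancreatic calls 2 held, Hoxb2 and Hoxb9. With the filter redone 7 of the 11 oral genes were not tested without either oral tumor, the oral count was 2 without oral KO tumor 1 and 3 without oral KO tumor 2, and 0 held in all 5 fits. Without oral KO tumor 2 the pancreatic count was 2, without pancreatic KO tumor 1 or 2 it was 3, and without pancreatic KO tumor 2 or 3 the oral count was 7. Hoxc13, a hair and nail gene, was at 2.38 and 17.3 CPM in the oral tumors and 3.05, 8.97 and 6.17 CPM in the pancreatic tumors and did not pass the test (adjusted p = 0.52).

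**Figure D2:**
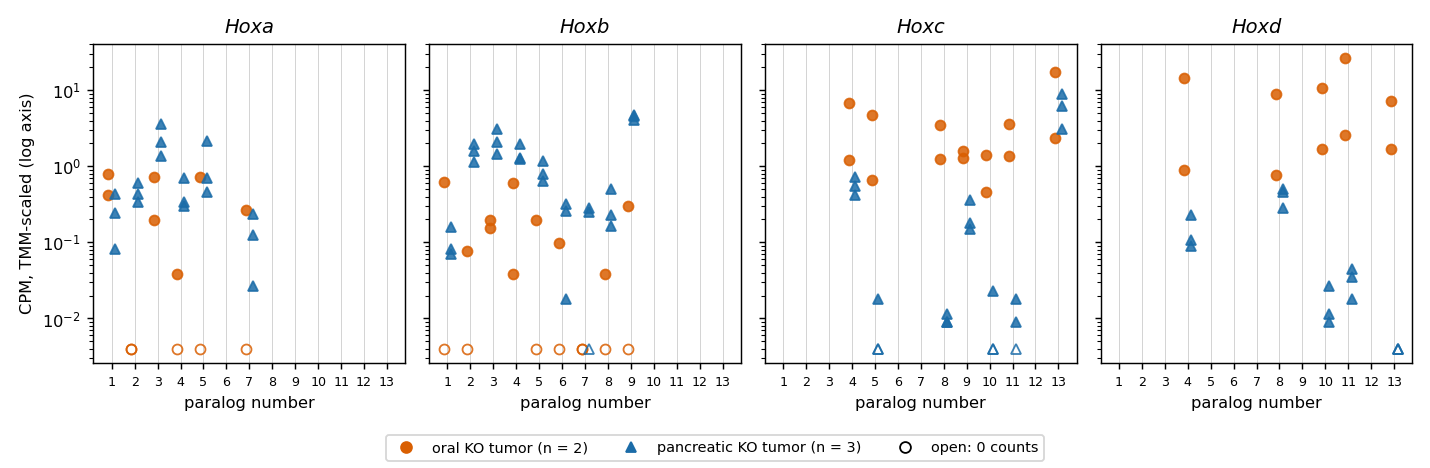
TMM-scaled CPM (log axis) of each tested Hox gene against its paralog number in the 4 clusters, with 1 symbol per Sox2 KO tumor and open symbols for 0 counts. Oral tumors lie above pancreatic tumors for 6 Hoxc and all 5 Hoxd genes, and pancreatic tumors lie above oral tumors for 6 of the 9 Hoxb genes. Over all coding genes, levels of the 2 sites did not overlap, in either direction, for 61.4%.

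The same positional genes could be set beside the WT tumors, which share no tumor with the KO comparison. In WT tumors 10.5% of 17462 coding genes were higher in oral and 7.52% in pancreatic tumors. Of the 19 craniofacial factors higher in oral KO tumors 16 were also higher in oral WT tumors, and of the 7 foregut factors 6 were also higher in pancreatic WT tumors. Of the 11 Hox genes 7 were also called in oral and of the 6 Hox genes 3 in pancreatic WT tumors. The oral WT tumors differed widely from each other in such genes. In oral WT tumors 1 to 4, Hoxd13 had 1, 5, 95 and 3612 counts and Hoxd11 had 2, 6, 118 and 899. Hoxc8 had 192, 2309, 16 and 108 counts in the same order. Over all coding genes tested in KO tumors, 644 were higher at the oral site in both genotypes, which is 40.7% of the KO calls and 38.9% of the WT calls. In the pancreas 550 were shared, 24.5% of the KO calls and 42.6% of the WT calls.

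Among signals between cells, calls were divided between the sites. Of 36 tested ligands and antagonists of the Wnt, Bmp, Fgf, hedgehog and related pathways, 4 were higher in oral and 5 in pancreatic tumors, near the backgrounds of 9.37% and 13.3%. Wnt16 was at 1.79 and 1.42 CPM in the oral tumors and 12.7, 7.38 and 25.2 CPM in the pancreatic tumors (log2 fold change -3.25 (SE 0.62), adjusted p = 0.016), and Sfrp1, a secreted Wnt antagonist, at 18.4 and 6.63 CPM in the oral tumors and 36.7, 92.6 and 76.3 CPM in the pancreatic tumors (log2 fold change -2.47 (SE 0.59), adjusted p = 0.028). Both were higher in the pancreas, and both lost the call without oral KO tumor 2. Wnt16 also lost it without oral KO tumor 1, and Sfrp1 without pancreatic KO tumor 2 or 3. Bmp2 was at 10.2 and 6.06 CPM in the oral tumors and 1.31, 2.48 and 0.298 CPM in the pancreatic tumors and Wnt7a at 0 and 0.192 CPM in the oral tumors and 2.49, 3.31 and 0.235 CPM in the pancreatic tumors, and neither passed the test (adjusted p = 0.057 and 0.084). The remaining calls were Wnt6, Wnt2b, Eda and Wnt9a in oral and Dhh, Bmp7 and Wnt10a in pancreatic tumors. The oral count of 4 was 1 and 2 without pancreatic KO tumors 1 and 2, and the pancreatic count of 5 was 3 without oral KO tumor 2.

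The genes with the smallest adjusted p whose groups did not overlap were mostly of muscle on the oral side. Of the 10 oral genes, Xirp2, mt-Nd3, Ttn, Acta1, Lyg1, Des, Tgm3 and Atp2a1 are named here. Of these, Xirp2, Ttn, Acta1, Des and Atp2a1 encode parts of the sarcomere, its links to the cell, or the calcium pump of muscle. Lyg1, a lysozyme-like protein, was at 7.35 and 5.25 CPM in the oral tumors and 0.00892, 0.0115 and 0.00904 CPM in the pancreatic tumors, a ratio of 602-fold (95% counting interval 203 to 2943). Xirp2 and Lyg1 passed the count filter through the oral tumors alone, which fixed their direction. mt-Nd3, a mitochondrially encoded subunit of complex I, was at 786 and 648 CPM in the oral tumors and 22.7, 20.8 and 21.4 CPM in the pancreatic tumors, but 98.1% of its 31-base sequences occur in other genes, so that this value is uncertain. The pancreatic genes named are Avil, Onecut2, Bmx, Basp1, Prss12, St3gal4, Plk2, Cldn1 and Tes. Avil, an actin-bundling protein of tuft cells and sensory neurons, was at 2.88 and 2.26 CPM in the oral tumors and 76.7, 81.3 and 80.7 CPM in the pancreatic tumors (log2 fold change -4.97 (SE 0.22), adjusted p = 0.00098). Bmx, a Tec-family kinase, was at 1.69 and 1.495 CPM in the oral tumors and 47.4, 60.5 and 68.7 CPM in the pancreatic tumors (log2 fold change -5.22 (SE 0.28), adjusted p = 0.0019), and Cldn1, the tight junction claudin of stratified epithelium, at 79.9 and 97.0 CPM in the oral tumors and 839, 879 and 812 CPM in the pancreatic tumors (log2 fold change -3.25 (SE 0.21), adjusted p = 0.0029). The pancreatic tumors lay above the oral tumors for each of these genes, as the rule of selection requires.

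Simple and glandular epithelial genes were higher in the pancreas. Of 33 tested members 18 were higher in pancreatic and 0 in oral tumors, beside backgrounds of 13.3% and 9.37%. No member had a positive fitted difference, so that edgeR gave 0 oral genes also at an unadjusted p, and DESeq2 called 0. For 8 members the oral tumors held 3 or fewer counts in all. These members passed the count filter through the deeper pancreatic libraries alone, which fixed their direction. The median log2 fold change was -4.05, or -3.74 with members at 0 or few counts set to their bounds. Krt8, a simple keratin, was at 10.1 and 3.57 CPM in the oral tumors and 177, 194 and 139.6 CPM in the pancreatic tumors (log2 fold change -4.68 (SE 0.52), adjusted p = 0.0064). Krt19, the duct keratin, was at 19.4 and 28.4 CPM in the oral tumors and 404, 371 and 276 CPM in the pancreatic tumors (log2 fold change -3.87 (SE 0.30), adjusted p = 0.004), and Krt18, the partner of Krt8, at 21.1 and 11.8 CPM in the oral tumors and 106, 92.9 and 53.1 CPM in the pancreatic tumors (log2 fold change -2.36 (SE 0.41), adjusted p = 0.013). Krt7 was at 34.8 and 194 CPM in the oral tumors and 566, 524 and 622 CPM in the pancreatic tumors and missed the threshold (adjusted p = 0.051), with oral KO tumor 2 well above oral KO tumor 1.

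The secretory members varied most within the pancreas. Dmbt1, a mucin-like protein of gut and duct surfaces, was at 1.69 and 0.115 CPM in the oral tumors and 2467, 2056 and 108 CPM in the pancreatic tumors. It was 1711-fold higher in the pancreas (log2 fold change -11.07 (SE 2.13), adjusted p = 0.016), although pancreatic KO tumor 3 was far below the other two. Tff2, a trefoil peptide of gastric mucus, had 0 counts in the oral tumors and was at 41.3, 13.3 and 0.995 CPM in the pancreatic tumors, at least 89.8-fold higher (adjusted p = 0.044). The Tff2 call was lost without either oral tumor and without pancreatic KO tumor 1 or 2. It was also lost in the edgeR test with coding genes scaled alone (adjusted p = 0.058). Tff1 and Tff3 were at 38.8, 1.245 and 0.0814 CPM and 21.2, 1.29 and 0.0452 CPM in the pancreatic tumors, with 0 counts in the oral tumors, and did not pass the test (adjusted p = 0.13 and 0.13). Of the 18 calls 6 held in each fit that left out 1 tumor. The count was 9 without oral KO tumor 2 and 11 without pancreatic KO tumor 2.

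Genes of the mature, keratinizing layers were higher in oral tumors. Of 39 tested keratinocyte differentiation genes, 19 were higher in oral and 1 in pancreatic tumors (median log2 fold change 2.29, 2.58 above all coding genes). The background was 9.37% in oral and 13.3% in pancreatic tumors. Tgm3, a transglutaminase that links the cornified envelope, was at 74.8 and 62.7 CPM in the oral tumors and 0.294, 0.104 and 0.154 CPM in the pancreatic tumors (log2 fold change 8.51 (SE 0.47), adjusted p = 0.002). Hrnr, a filaggrin-like protein, was at 229.8 and 65.8 CPM in the oral tumors and 0.794, 0.530 and 0.0724 CPM in the pancreatic tumors (log2 fold change 8.31 (SE 1.06), adjusted p = 0.0079), and Lor, the main protein of the cornified envelope, at 165 and 53.3 CPM in the oral tumors and 1.12, 0.795 and 0.0543 CPM in the pancreatic tumors (log2 fold change 7.38 (SE 1.16), adjusted p = 0.011). Lce3c, a late envelope protein, was at 47.3 and 12.3 CPM in the oral tumors and 0.0446, 0.0461 and 0 CPM in the pancreatic tumors (log2 fold change 9.89 (SE 1.06), adjusted p = 0.0062). Lce3c passed the count filter through the oral tumors alone, which fixed its direction. All oral tumors were above all pancreatic tumors, and oral KO tumor 1 was the higher one for all 4 genes.

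The exception was involucrin, Ivl, an early envelope protein, which was higher in the pancreas at 0.795 and 1.15 CPM in the oral tumors and 132, 82.0 and 25.7 CPM in the pancreatic tumors (log2 fold change -6.30 (SE 0.88), adjusted p = 0.0089) and was named after its value was seen. Krt1 and Krt10, the keratins of the first suprabasal layer of skin, were at 1207 and 59.5 CPM and 2138 and 97.3 CPM in the oral tumors. They were carried by oral KO tumor 1 and did not pass the test (adjusted p = 0.11 and 0.064). The summed level of the list was 11364 and 2880.2 CPM in the oral and 4167, 2632 and 1146 CPM in the pancreatic tumors, so that oral KO tumor 2 lay within the pancreatic range. Without oral KO tumor 1 the count fell from 19 to 11, or to 10 with the filter redone, and 10 genes held in each fit that left out 1 tumor, or 9 with the filter redone.

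The keratins of wet mucosa stood against their WT pattern. Krt4 (ENSMUSG00000059668, chr15:101918535-101924735, minus strand, GRCm38) was at 1421 and 992 CPM in the oral tumors and 217, 183 and 227 CPM in the pancreatic tumors (log2 fold change 2.53 (SE 0.23), adjusted p = 0.0048), and Krt13, its partner (ENSMUSG00000044041, chr11:100117327-100121566, minus strand, GRCm38), at 991 and 922 CPM in the oral tumors and 195, 97.6 and 104 CPM in the pancreatic tumors (log2 fold change 2.86 (SE 0.34), adjusted p = 0.0069). In tumors scaled over all 13, Krt4 was at 184, 496, 201 and 344 CPM in oral WT, 2618, 2009.9, 2948 and 1424 CPM in pancreatic WT, 1420.2 and 1009 CPM in oral KO and 213, 178 and 217 CPM in pancreatic KO tumors. For Krt13 the levels were 304, 671, 249 and 203 CPM in oral WT and 1642, 1720.4, 2426 and 884 CPM in pancreatic WT tumors. Both keratins were thus higher in the pancreas among WT tumors (log2 fold changes -2.88 and -2.23, adjusted p = 0.00026 and 0.0032) and higher in the mouth among KO tumors. The test of the difference itself, the interaction of site and genotype, gave log2 values of 5.46 (SE 0.53), adjusted p = 0.00046 for Krt4 and 5.14 (SE 0.67), adjusted p = 0.0037 for Krt13. Of 16 tested mucosal and stress keratins and related genes 4 were called in the interaction, Krt4, Krt13, Mal and Ecm1, beside 9.02% of all coding genes. For the comparison within KO tumors the background was 9.37% in oral and 13.3% in pancreatic tumors. Within the KO tumors 4 were higher in oral tumors, and these calls held in each fit that left out 1 tumor with the genes kept. With the filter redone Krt24 and Krt36 were not tested without either oral tumor, so that 2 of the 4 held, while Anxa8 and Ecm1 were higher in pancreatic tumors and lost the call without either oral tumor. Krt24 and Krt36 were low and higher in oral tumors, at 4.77 and 1.495 CPM and 6.36 and 0.652 CPM against at most 0.0624 CPM in a pancreatic tumor. Both passed the count filter through the oral tumors alone, which fixed their direction. Krt76, a keratin of the palate, was at 211 and 40.3 CPM in the oral tumors and 40.9, 0.784 and 2.64 CPM in the pancreatic tumors and did not pass the test (adjusted p = 0.18).

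**Figure D3:**
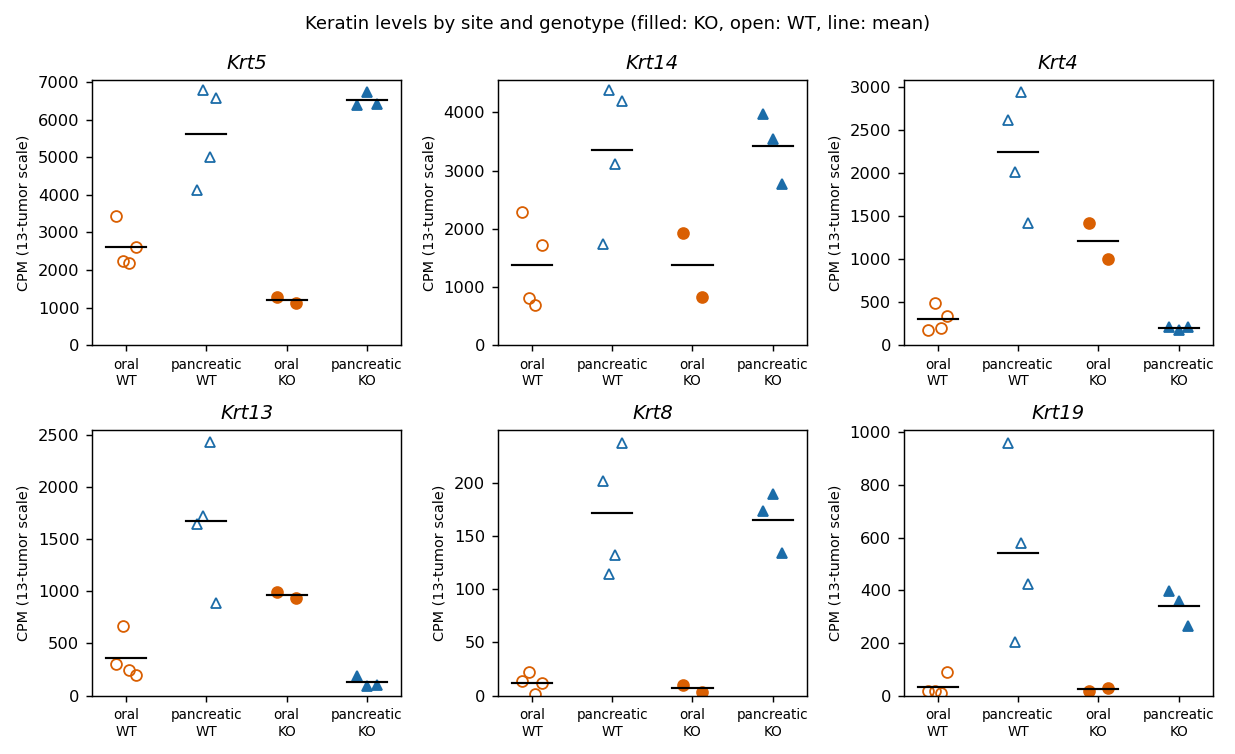
CPM of 6 keratins, scaled over all 13 tumors, in WT (open) and Sox2 KO (filled) tumors of the 2 sites, with a line at the mean of each group. Krt4 and Krt13 are higher in the pancreas among WT tumors and in the mouth among KO tumors, whereas Krt8 and Krt19 are higher in the pancreas in both genotypes.

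Basal cell genes leaned to the pancreas, beside backgrounds of 13.3% higher in pancreatic and 9.37% in oral tumors. Of 22 tested basal keratinocyte genes 8 were higher in pancreatic and 1 in oral tumors (median log2 fold change -1.05, -0.77 from all coding genes). Krt5, the basal keratin, was at 1276 and 1116 CPM in the oral tumors and 6525, 6926 and 6694 CPM in the pancreatic tumors. The difference was 5.62-fold (log2 fold change -2.49 (SE 0.25), adjusted p = 0.0058), and the interaction with genotype was -1.33 (SE 0.33), adjusted p = 0.023. Krt14, its partner and the promoter behind the oral driver named in the methods, was at 1923 and 812 CPM in the oral tumors and 4048, 3639 and 2886 CPM in the pancreatic tumors (log2 fold change -1.37 (SE 0.42), adjusted p = 0.0497). This call was lost with coding genes scaled alone (adjusted p = 0.11) and in 4 of the 5 fits that left out 1 tumor, all but that without oral KO tumor 1. Itga6, the integrin of the hemidesmosome, was at 261 and 139.8 CPM in the oral tumors and 1651, 1102 and 1576 CPM in the pancreatic tumors (log2 fold change -2.85 (SE 0.37), adjusted p = 0.0079). Fgfr2, the receptor of the keratinocyte growth factor, was the gene of the list that was higher in oral tumors, at 229 and 336 CPM in the oral tumors and 25.3, 41.1 and 41.1 CPM in the pancreatic tumors (log2 fold change 2.98 (SE 0.29), adjusted p = 0.0053).

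Squamous lineage factors showed the same lean, with 7 of 23 higher in pancreatic and 2 in oral tumors, beside backgrounds of 13.3% and 9.37%. Their median log2 fold change was -0.62, -0.33 from all coding genes. Tfap2b, a factor of neural crest and facial ectoderm, was at 4.97 and 5.94 CPM in the oral tumors and 0.125, 0.219 and 0.145 CPM in the pancreatic tumors (log2 fold change 5.06 (SE 0.43), adjusted p = 0.0045), and Elf5 at 44.0 and 58.7 CPM in the oral tumors and 15.6, 12.7 and 8.58 CPM in the pancreatic tumors (log2 fold change 2.06 (SE 0.30), adjusted p = 0.0088). Both were higher in oral tumors and kept the call in each fit that left out 1 tumor. Sox15, a relative of Sox2, was at 3.78 and 0.652 CPM in the oral tumors and 16.8, 9.38 and 18.6 CPM in the pancreatic tumors (log2 fold change -2.83 (SE 0.79), adjusted p = 0.041), and lost the call when any tumor except oral KO tumor 1 was left out. Of the 7 pancreatic calls 2 held in all 5 fits, and 4 remained in number with coding genes scaled alone. The count was 3 without oral KO tumor 2, 2 without pancreatic KO tumor 1 and 4 without pancreatic KO tumor 2 or 3.

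Proliferation genes showed no DEG in the edgeR test. Of 28 tested genes 0 passed in either direction, 8 had an unadjusted p under 0.05 without passing the fold threshold, and DESeq2 also called 0. The median log2 fold change was -0.36, -0.08 from all coding genes. Cdk1, the mitotic kinase, was at 23.7 and 28.8 CPM in the oral tumors and 53.8, 42.5 and 49.2 CPM in the pancreatic tumors, a log2 fold change of -0.88 with adjusted p = 0.022 that stays under the fold threshold. Pcna, the replication clamp, was at 51.5 and 71.7 CPM in the oral tumors and 109, 101 and 116 CPM in the pancreatic tumors (log2 fold change -0.82 (SE 0.20), adjusted p = 0.027), likewise under the fold threshold. Without oral KO tumor 2, 6 of the genes were called higher in the pancreas, and without pancreatic KO tumor 2, 2 were.

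**Figure D4:**
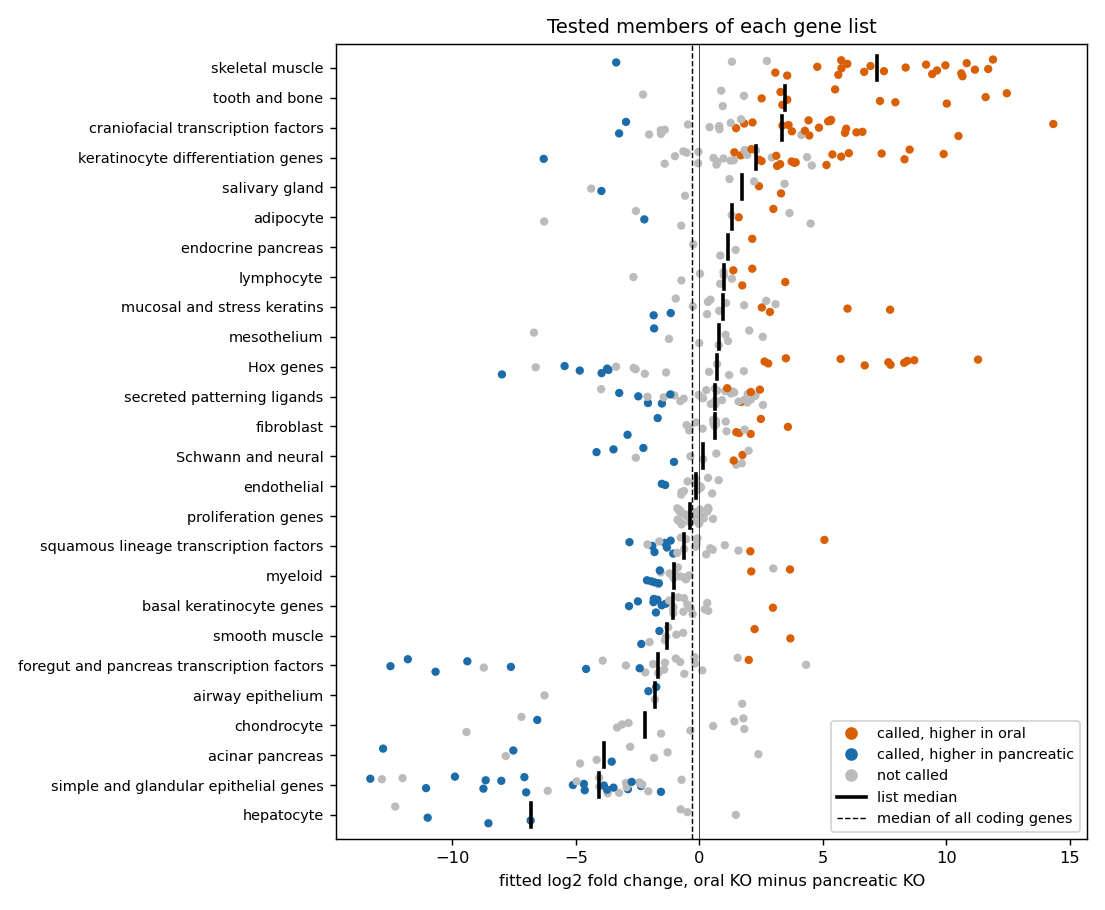
Fitted log2 fold changes, oral KO minus pancreatic KO, of the tested members of each gene list, coloured where called. A thick bar marks the median of the list and the dashed line that of all coding genes, -0.28. Skeletal muscle, tooth and bone, and craniofacial factors have the medians farthest to the oral side, and hepatocyte, simple epithelial and acinar genes lie on the pancreatic side. Values of members with 0 counts at a site depend on the fit's prior count, and with such members at their bound the hepatocyte median moved from -6.83 to -0.76 and the simple epithelial median from -4.05 to -3.74.

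Markers of some other cell types differed between the sites. Over all coding genes 9.37% were higher in oral and 13.3% in pancreatic tumors. Of 24 tested skeletal muscle genes 21 were higher in oral tumors and 1, Tnni1, in pancreatic tumors, and their summed level was 6117 and 3375 CPM in the oral and 31.6, 26.2 and 32.5 CPM in the pancreatic tumors. Ttn, the giant spring of the sarcomere, was at 4133 and 2493 CPM in the oral tumors and 0.865, 1.15 and 0.606 CPM in the pancreatic tumors (log2 fold change 11.89 (SE 0.49), adjusted p = 0.00097). Myh2, a fast myosin, was at 21.5 and 46.3 CPM in the oral tumors and 0, 0.0231 and 0.0181 CPM in the pancreatic tumors, a difference of 2469.7-fold. Myh2 was among 6 of these genes that passed the count filter through the oral tumors alone, which fixed their direction. The oral tumors lay far above the pancreatic tumors, and 18 of the 21 calls held in each fit that left out 1 tumor with the genes kept. With the filter redone 13 held, the count being 16 without oral KO tumor 1 and 13 without oral KO tumor 2, where 6 and 7 of the 21 genes were not tested. In oral WT tumors 11 of the 24 genes were higher than in pancreatic WT tumors, and oral WT tumor 4 carried their level. The 24 genes summed to 669.7 CPM in this tumor and to 26.4 to 42.7 CPM in the other oral WT tumors, against 17.3 to 21.5 CPM in the pancreatic WT tumors. The part of muscle in the other oral differences was not tested. Tbx1 is also known in head muscle, and these bulk levels cannot place it in tumor or muscle cells.

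Tooth and bone genes were higher in oral tumors in 10 of 14 cases, beside a background of 9.37%. Odam, a protein of the enamel organ and the gum attached to the tooth, was at 129 and 323 CPM in the oral tumors and 0, 0.0231 and 0.0904 CPM in the pancreatic tumors, a difference of 5965-fold (log2 fold change 12.45 (SE 0.95), adjusted p = 0.0042). Ibsp, the bone sialoprotein, was at 129 and 63.8 CPM in the oral tumors and 0.0357, 0.0576 and 0 CPM in the pancreatic tumors (log2 fold change 11.59 (SE 0.78), adjusted p = 0.0037), and Amtn, amelotin of the enamel organ, at 2.48 and 7.78 CPM in the oral tumors and 0.00892, 0 and 0 CPM in the pancreatic tumors, a ratio of 1952-fold (95% counting interval 347 to 77425). Odam and Amtn were higher in oral KO tumor 2 and Ibsp in oral KO tumor 1. Of the 10 genes 3, among them Ibsp and Amtn, passed the count filter through the oral tumors alone, which fixed their direction. Of the 10 genes 9 were also higher in oral WT tumors. Without oral KO tumor 1 the count of 10 was 7, or 4 with the filter redone. Bglap, osteocalcin, was at 19.5 and 5.29 CPM in the oral tumors and 0.0268, 0.0461 and 0.0724 CPM in the pancreatic tumors, but 62.9% of its 31-base sequences are shared with other genes, so that its value is uncertain.

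Stromal genes were divided. Of 20 fibroblast genes 5 were higher in oral and 2 in pancreatic tumors, beside backgrounds of 9.37% and 13.3%, and the summed level was 11590.1 and 13358 CPM in the oral and 4247, 7292 and 3748 CPM in the pancreatic tumors. Postn, periostin, was at 741 and 804 CPM in the oral tumors and 102, 164 and 146 CPM in the pancreatic tumors (log2 fold change 2.49 (SE 0.24), adjusted p = 0.0053), Col1a1 at 4427 and 4496 CPM in the oral tumors and 1034, 1346 and 792 CPM in the pancreatic tumors (log2 fold change 2.08 (SE 0.28), adjusted p = 0.008) and Fap, a protease of activated fibroblasts, at 39.0 and 25.8 CPM in the oral tumors and 3.07, 2.72 and 2.29 CPM in the pancreatic tumors (log2 fold change 3.58 (SE 0.29), adjusted p = 0.0042). C3, complement component 3, was at 17.5 and 17.7 CPM in the oral tumors and 95.1, 244 and 57.4 CPM in the pancreatic tumors and higher in the pancreas (log2 fold change -2.91 (SE 0.66), adjusted p = 0.025). The 5 oral calls became 8 without oral KO tumor 1, and both pancreatic calls, C3 and Thy1, were lost without either oral tumor. Of 10 smooth muscle genes Des and Synpo2 were higher in oral tumors and Acta2 and Smtn in pancreatic tumors, with Acta2 at 49.3 and 126 CPM in the oral tumors and 451, 317 and 579 CPM in the pancreatic tumors. Of 12 chondrocyte genes the sole DEG was Hapln1, at 2.78 and 3.72 CPM in the oral tumors and 116, 75.3 and 746 CPM in the pancreatic tumors, higher in the pancreas and lost without either oral tumor.

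Vessel and immune cell genes gave few calls. Each count below stands beside shares over all coding genes of 9.37% higher in oral and 13.3% higher in pancreatic tumors. Of 15 endothelial genes 2 were higher in the pancreas, a share no larger than the background of 13.3%, Pecam1 at 26.1 and 31.7 CPM in the oral tumors and 77.6, 80.0 and 69.7 CPM in the pancreatic tumors (log2 fold change -1.39 (SE 0.18), adjusted p = 0.0075) and Plvap, which was lost without oral KO tumor 1. Of 18 myeloid genes 5 were higher in pancreatic and 2 in oral tumors. C1qc, a complement protein of macrophages, was at 9.74 and 17.1 CPM in the oral tumors and 32.5, 76.0 and 48.4 CPM in the pancreatic tumors (log2 fold change -1.95 (SE 0.44), adjusted p = 0.024), and Cd14 at 14.2 and 13.3 CPM in the oral tumors and 61.1, 82.2 and 36.0 CPM in the pancreatic tumors (log2 fold change -2.12 (SE 0.37), adjusted p = 0.013). No myeloid call held without oral KO tumor 1, and 0 of the pancreatic ones held without oral KO tumor 2. Of 11 lymphocyte genes 4 were higher in oral tumors, among them Cd3d at 2.19 and 3.72 CPM in the oral tumors and 1.07, 0.842 and 0.769 CPM in the pancreatic tumors, and none held in each fit that left out 1 tumor. Of 13 Schwann and neural genes 2 were higher in oral and 4 in pancreatic tumors, among the latter S100b at 1.29 and 0.613 CPM in the oral tumors and 4.99, 17.6 and 26.2 CPM in the pancreatic tumors, and of 9 adipocyte genes 2 were higher in oral and 1 in pancreatic tumors. None of these calls held in each fit either.

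Markers of normal pancreas were low and uneven. The background for the counts below was 9.37% in oral and 13.3% in pancreatic tumors. Of 10 acinar genes 3 were higher in the pancreas, Reg1, Gp2 and Cela1, of which Gp2 held in each fit that left out 1 tumor. Reg1 and Gp2 had at most 2 counts in an oral tumor and passed the count filter through the pancreatic tumors alone. The filter thus fixed the direction of both genes in every fit. The summed level was 23.4, 36.3 and 512 CPM in the pancreatic and 7.95 and 21.6 CPM in the oral tumors. Cpa1, a digestive enzyme, was at 0.339, 0.611 and 18.8 CPM in the pancreatic tumors, and Amy2a5, pancreatic amylase, at 0.0714, 0.0461 and 35.7 CPM, with 62.3% of its 31-base sequences shared. Pancreatic KO tumor 3 carried these enzymes, and neither gene passed the test (adjusted p = 0.088 and 0.27). Gp2, a zymogen granule protein, was at 0.199 and 0 CPM in the oral tumors and 12.1, 9.06 and 14.1 CPM in the pancreatic tumors, a ratio of 216-fold (95% counting interval 59.8 to 1786). Of 4 tested endocrine genes Slc30a8, a zinc transporter, was higher in oral tumors, a call lost in 4 of the 5 fits that left out 1 tumor. Of 7 hepatocyte genes 3 were higher in the pancreas, Ambp with 7.97, 2.39 and 0.760 CPM there among them, and none of the 3 calls held in each fit that left out 1 tumor. Ttr was at 17.4, 9.90 and 0.298 CPM in the pancreatic tumors and did not pass the test (adjusted p = 0.058). Of 9 mesothelial genes Wt1 was higher in the pancreas, at 0.596 and 1.07 CPM in the oral tumors and 3.24, 3.78 and 2.22 CPM in the pancreatic tumors, a call that was lost whichever tumor was left out. Of 8 salivary genes 2 were higher in oral tumors, Egf at 8.25 and 7.05 CPM in the oral tumors and 1.34, 1.39 and 1.57 CPM in the pancreatic tumors and Amy1, and Aqp5 was higher in the pancreas. Amy1 lost the call without oral KO tumor 1 or pancreatic KO tumor 1, and Aqp5 without either oral tumor. Of 5 airway genes Tubb4b and Scgb1a1 were higher in the pancreas, and of these Tubb4b held in each fit.

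**Figure D5:**
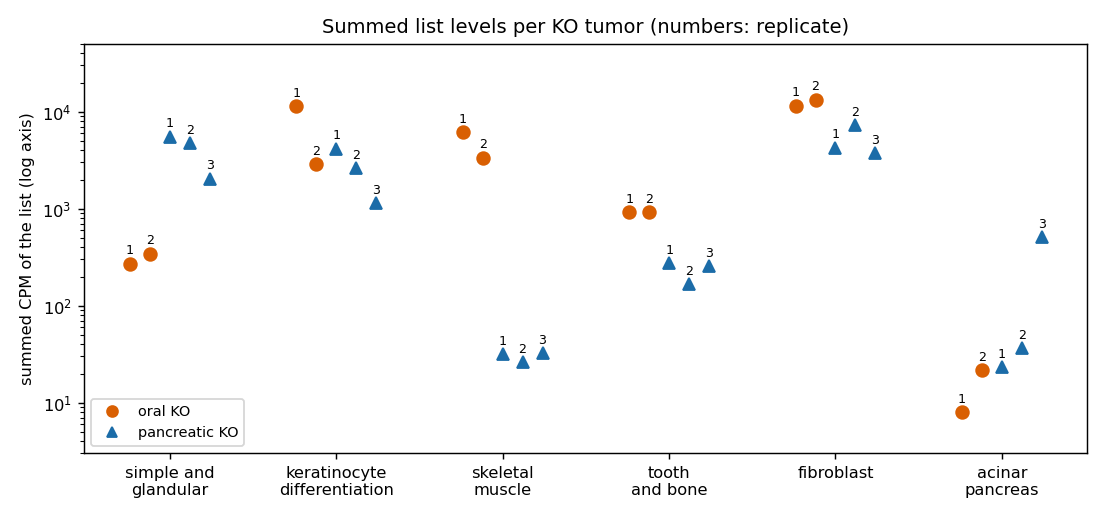
Summed TMM-scaled CPM (log axis) of 6 gene lists in each Sox2 KO tumor, with the replicate number above each symbol. Skeletal muscle reaches 6117 and 3375 CPM in the oral tumors against 31.6, 26.2 and 32.5 CPM in the pancreas, and acinar genes are highest in pancreatic KO tumor 3.

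Across all coding genes the site difference of KO tumors and that of WT tumors were tested against each other in 1 fit of the 13 tumors. The depth of the sites differed more among KO than among WT tumors, and its part in the interactions was not tested. Of 17462 genes 540 had a positive and 1035 a negative interaction, 9.02% in all, and with coding genes scaled alone the counts were 439 and 352. Of 39 keratinocyte differentiation genes 6 had a positive interaction, and of 16 mucosal and stress keratins 4. Of the craniofacial factors 1 had a positive and 2 a negative one. The edgeR test called 0 foregut factors and 0 Hox genes in the interaction, and 2 and 1 had an unadjusted p under 0.05. Msx1 and Six2 were higher in oral tumors of both genotypes by less in KO than in WT tumors, with interactions of -2.06 (SE 0.60), adjusted p = 0.039 and -3.72 (SE 1.10), adjusted p = 0.043. Nkx2-3, a pharyngeal endoderm and salivary factor, was at 3.28 and 0.0767 CPM in the oral tumors and 0.410, 1.99 and 1.12 CPM in the pancreatic tumors, without a site difference past the test in KO tumors, while it was higher in pancreatic WT tumors (log2 fold change -8.09, adjusted p = 0.011), an interaction of 8.56 (SE 2.20), adjusted p = 0.035. It had 0 counts in the 4 oral WT tumors, so that the size of both fitted values depends on the prior count.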

How the data were processed

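Total RNA of 13 mouse NC tumors was depleted of ribosomal RNA, made into stranded libraries and sequenced. The authors trimmed reads with Trim Galore 0.6.10, checked them with FastQC 0.12.1 and assigned them with kallisto 0.50.0 to GENCODE M23 transcripts on GRCm38, and the estimated counts per gene that the authors deposited are not normalized and need not be whole. Kallisto shares reads between similar transcripts, so that genes with over 50% of their 31-base sequences in other genes were marked as uncertain.

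Here the estimated counts were rounded, scaled by the TMM method and tested with edgeR 4.0.16 (R 4.3.3), by the robust quasi-likelihood test on the 2 oral and 3 pancreatic Sox2 KO tumors. A gene was kept when 2 or more of these tumors held 10 or more counts of it. Adjusted p-values are Benjamini-Hochberg values over 24787 genes of all types. The SE of a log2 fold change was taken as its size divided by the square root of the F statistic. The interaction of site and genotype was tested in 1 fit of the 13 tumors. Types and positions of genes come from the M21 release of GENCODE, which held 55141 of the 55332 identifiers with values, since M23 was not used here. Where a site had 0 counts in every tumor, folds were bounded with a floor of 3 counts per library, and where it had 1 to 3 in all, the ratio was given a 95% counting interval. The test was checked on simulated data. Alternatives were another scaling, count filter, tool, depth and fit, and leaving out each tumor. Fits without an oral tumor were run with the filter redone and, added after seeing the data, with the genes of the 5-tumor filter kept.

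The genes named were the study's core genes, the 10 genes per site with the smallest adjusted p and no overlap of the sites, up to 4 members of each list with the largest difference, and all positional factors. The simple, basal and suprabasal keratins, Ivl and the genes of the closing observations were named after their values were seen. Members and lists were chosen with earlier results of these data known. Results for some of the genes that this rule names are not reported here, while the counts over lists include them.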

Additional observations from a re-analysis of the deposited data

Results flagged for a closer look

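The site difference of KO tumors and that of WT tumors were compared for each named gene in the fit of the 13 tumors, and 19 genes had an interaction past the threshold of edgeR's quasi-likelihood test. Values are log2 differences, KO minus WT, of the difference oral minus pancreatic. Positive values were found for Krt4 (5.46, adjusted p = 0.00046) and Krt13 (5.14, adjusted p = 0.0037), and for the envelope genes Lce3c (8.42) and Lor (6.20). Nts, the precursor of neurotensin, had 12.92, and the serpins Serpinb3a and Serpinb12 had 9.62 and 5.66. Myh4, a fast myosin, had 9.05, Nkx2-3 had 8.56 and the growth factor Egf had 1.59. The value of mt-Nd3 was 4.70, with the limit on its shared sequence given above.

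Negative values were found for Krt5 (-1.33, adjusted p = 0.023), Six2 (-3.72), Msx1 (-2.06), Hapln1 (-4.78), the growth factor Igf1 (-3.32), the complement gene C1qc (-2.60), Basp1 (-1.89) and St3gal4 (-1.19). The adjusted p of the genes without one beside them lay between 0.00015 and 0.046. Myh4 had at most 3 counts in any pancreatic tumor and Nkx2-3 had 0 counts in the 4 oral WT tumors, so that the size of these fitted differences depends on the prior count. Lce3c and Serpinb3a had 0 counts in pancreatic KO tumor 3.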

How the results depend on the processing

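With 2 oral against 3 pancreatic tumors and a smallest library of 11735315 counts, the oral libraries set the lowest level that can be seen. Some alternatives, among them that with at least 10 counts in every tumor, did not test every named gene. A gene that was not tested could not change direction there. No DEG among the 217 named genes changed direction under the alternatives run, while 26 genes that were not called changed sign in at least 1, among them Nutm1 and Trp63 with coding genes scaled alone (5 genes) and Nkx2-3, Otx1 and Osr2 without oral KO tumor 1 (13 genes), and between 0 and 51 of the named genes per alternative fell below the threshold. The 2249 pancreatic genes became 1093 with coding genes scaled alone, 849 with counts thinned to the smallest library and 759 with coding genes alone and oral KO tumor 1 left out, an alternative chosen after seeing the data that gave 807 oral genes. Leaving out 1 tumor gave 850 to 1181 oral genes (1582 with all) and 1460 to 1809 pancreatic genes, the oral count being 1181 without oral KO tumor 1, 945 without oral KO tumor 2 and 862, 850 and 884 without pancreatic KO tumors 1, 2 and 3, and the pancreatic count 1460 without pancreatic KO tumor 1 and 1809 without pancreatic KO tumor 3. With the genes of the 5-tumor filter kept, an alternative also chosen after seeing the data, the fits without oral KO tumors 1 and 2 gave 1293 and 1075 oral and 1676 and 1887 pancreatic genes. Where 1 oral tumor remained, it was assumed to vary like the pancreatic tumors. Tumors that share a replicate number were not paired (r of their deviations -0.0018 and -0.018 over 24787 genes). The replicate block left 1 residual degree of freedom in the fit of the KO tumors, which gave 818 oral and 2048 pancreatic genes. In the fit of all WT and KO tumors the block gave 259 positive and 529 negative interactions. The negative interactions (1035) were 352 with coding genes alone and 555 with at least 10 counts in every tumor. Leaving out an oral KO tumor gave 316 to 397 positive and 622 to 1053 negative interactions, with 316 and 622 without oral KO tumor 1. DESeq2 called 1991 oral and 2781 pancreatic genes. Causes of these shifts were not tested.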

Other observations

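Outside the lists, a number of secreted and stress genes separated the sites, and they were chosen after their values were seen. Spp1, osteopontin, which pancreatic duct cells secrete, was at 129 and 62.8 CPM in the oral tumors and 6516, 8429 and 8542 CPM in the pancreatic tumors (log2 fold change -6.36 (SE 0.49), adjusted p = 0.004). The pancreatic tumors lay above the oral tumors without overlap. Sox9, a Sox factor of duct and progenitor cells, was at 62.6 and 35.7 CPM in the oral tumors and 459, 893 and 799 CPM in the pancreatic tumors (log2 fold change -3.87 (SE 0.44), adjusted p = 0.0064). Ltf, lactoferrin, was at 24.1 and 8.51 CPM in the oral tumors and 201, 121 and 629 CPM in the pancreatic tumors, and Lcn2, lipocalin 2, at 13.02 and 10.8 CPM in the oral tumors and 129.7, 315 and 178 CPM in the pancreatic tumors. Their adjusted p in the edgeR test was 0.022 and 0.0064, and the call of Ltf was lost without either oral tumor.

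On the oral side, Mmp9, a gelatinase, was at 119 and 124 CPM in the oral tumors and 4.41, 6.998 and 3.39 CPM in the pancreatic tumors (log2 fold change 4.62 (SE 0.33), adjusted p = 0.0038), and Mmp13, a collagenase, at 271 and 247 CPM in the oral tumors and 6.25, 12.6 and 3.21 CPM in the pancreatic tumors (log2 fold change 5.14 (SE 0.58), adjusted p = 0.0068). Both oral tumors lay above the 3 pancreatic tumors. Nts was at 193 and 3123 CPM in the oral tumors and 0.143, 0.0692 and 0.0181 CPM in the pancreatic tumors (log2 fold change 14.36 (SE 1.65), adjusted p = 0.0069), and Hhip, the hedgehog-interacting protein, at 1.29 and 965 CPM in the oral tumors and 0.205, 0.0231 and 0.0271 CPM in the pancreatic tumors (log2 fold change 12.39 (SE 2.65), adjusted p = 0.021). Oral KO tumor 2 carried most of the level of both genes, and the call of Hhip was lost when any tumor except oral KO tumor 1 was left out.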
